A study of Homo sapiens with 6 samples.

Results

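KGN cells, a human tumour line of granulosa cell origin, were examined here for 10 genes that define granulosa cells or carry their hormone signals: the transcription factor genes FOXL2, GATA4, GATA6, NR5A1, NR5A2 and WT1, the estrogen receptor gene ESR2, the hormone gene AMH, and the hormone receptor genes AMHR2 and FSHR. They were picked by symbol from a table of 16626 genes, of which 9 members had a row. FSHR, the receptor for follicle-stimulating hormone, had no row and was not analysed here. The 6 libraries fall into 2 groups of 3. OE-NC is the control, with its genotype labelled wild type, and OE-SOX3 overexpresses SOX3, an X-linked transcription factor gene of the SOX family. How SOX3 was introduced, what the control carries, and whether a group is 1 clone or a mixed population are not stated in the labels. Nor do the labels say whether the libraries stem from different cultures. The p-values therefore reflect how far these libraries scatter, and that scatter may be technical. The line's established FOXL2 missense mutation, a hallmark of adult granulosa cell tumours, cannot be seen in values per gene.

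Granulosa cells surround the oocyte, make estrogen and secrete anti-Müllerian hormone. FOXL2 maintains ovarian somatic cell fate, the zinc finger factors GATA4 and GATA6 act with the orphan nuclear receptors NR5A1 (steroidogenic factor 1) and NR5A2 (liver receptor homolog 1) on steroidogenic promoters, and WT1 is needed to form the gonad. The beta estrogen receptor, encoded by ESR2, is the main estrogen receptor of granulosa cells. Anti-Müllerian hormone signals through its dedicated type II receptor, encoded by AMHR2, to SMAD proteins shared with bone morphogenetic proteins.

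Expression was given as FPKM, reads scaled to gene length and to the library total, from 18039929 to 20335307 reads per library. SOX3 held 3, 6 and 1 reads in OE-NC and 579, 547 and 540 in OE-SOX3. Changes between the groups were widespread: 69.1% of 11131 genes tested in limma on log2(FPKM + 1) had an adjusted p under 0.05, 32.9% higher and 36.1% lower in OE-SOX3. In the text, rose and fell refer to that threshold. OE-NC replicate 1 stood apart, with a correlation of 0.986 to each other OE-NC library against 0.998 between those. With every library scaled to the same sum of FPKM, the median log2 change over all tested genes moved from -0.03 to 0.09, so small changes are relative to the scaling. In bulk RNA, fewer cells expressing a gene and less RNA per cell cannot be told apart.

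The members spanned a wide range of abundance per length. NR5A1 was the most abundant in both groups, at 15.7 ± 1.43 FPKM in OE-NC and 15.4 ± 0.926 in OE-SOX3 (SD, n = 3 per group), above 77.9% and 79.1% of all genes in the table. AMH and FOXL2 came next, and in each group no library of one overlapped a library of the other. The gap was narrow: the lowest AMH and highest FOXL2 values were 3.86 and 3.81 FPKM in OE-NC. In OE-SOX3 they were 5.08 and 5.02 FPKM. In OE-NC the next genes, NR5A2, GATA4, AMHR2 and GATA6, overlapped their neighbours in that order, all with means under 1 FPKM, and ESR2 and WT1 were near 0. In OE-SOX3 the order below FOXL2 was GATA4, WT1, NR5A2, GATA6, ESR2 and AMHR2, where WT1, NR5A2 and GATA6 overlapped their neighbours. A filter of at least 1 FPKM in either group kept 4 members, FOXL2, GATA4, NR5A1 and AMH. GATA4 passed it only through OE-SOX3, the group in which it was high, so the number of members that passed and changed is not a finding. Of the 4, FOXL2 and GATA4 rose and none fell, beside the 69.1% called over all tested genes. The 5 members under the filter were tested in the same limma fit without a filter, where 54.9% of 16278 genes were called, 28.5% higher and 26.4% lower. There GATA6 and WT1 rose and AMHR2 fell. In limma-voom on recovered reads, which called 64.4% of genes (33.5% higher, 30.9% lower), FOXL2, GATA4, GATA6 and WT1 rose and AMHR2 fell. Without OE-NC replicate 1, where 81.5% of tested genes were called (38.4% higher, 43.1% lower), FOXL2 and GATA4 rose again. In FPKM, 4 members were higher in every OE-SOX3 library than in any OE-NC library (33.2% of all genes above 0) and 1 was lower (30.4%). These 5 of 9 compare with 63.7% of all genes in either direction, so the share is near the background.

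**Figure D1:**
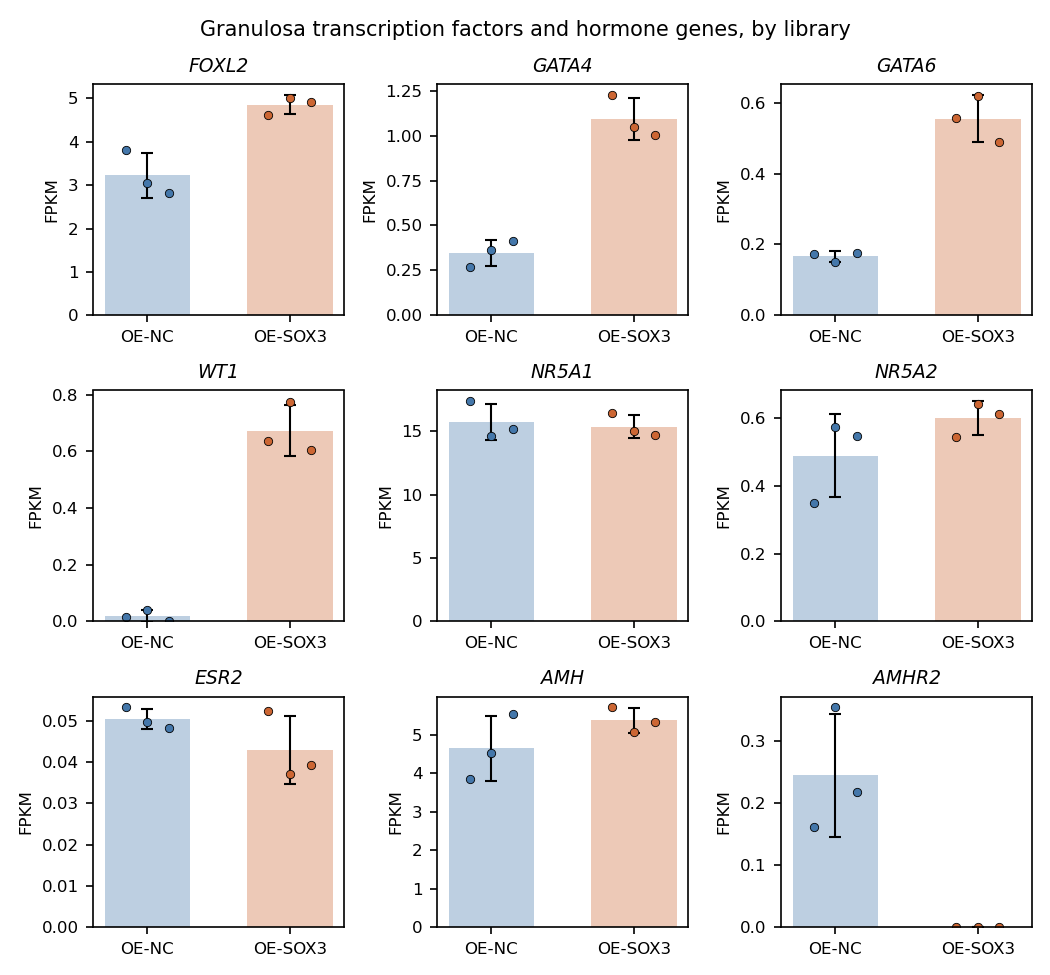
FPKM of 9 members (vertical axes, each with its own scale) in the 3 OE-NC and 3 OE-SOX3 libraries; points are libraries 1 to 3 from left to right, bars are means and error bars are SDs. FOXL2, GATA4, GATA6 and WT1 were higher in every OE-SOX3 library than in any OE-NC library, AMHR2 was at 0 in every OE-SOX3 library, and the groups of NR5A1, NR5A2, ESR2 and AMH overlapped.

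Among the transcription factors, FOXL2 rose moderately. It stood at 3.81, 3.05 and 2.82 FPKM in OE-NC (211, 181 and 155 reads) and at 4.61, 5.02 and 4.93 FPKM in OE-SOX3 (260, 280 and 259 reads). The lowest OE-SOX3 library was above the highest OE-NC library, which was replicate 1. On the log2(FPKM + 1) scale the rise was 0.48 (SE 0.09, limma adjusted p = 0.00328), and reads per unit depth differed 1.504-fold (95% interval 1.35 to 1.68, counting error only). FOXL2 is a gene of the minus strand on chromosome 3 (138944224 to 138947137, GRCh38), and none of its exon bases in GENCODE 29 lies in an exon of another gene. FOXL2NB, a neighbour transcribed in the opposite direction, begins after 79 bases between the 2 starts. It was named after its values were seen. FOXL2NB stood at 1.91, 2.12 and 2.25 FPKM in OE-NC and at 4.02, 4.07 and 3.60 in OE-SOX3, and it rose as well (log2 fold change 0.66, SE 0.07, limma adjusted p = 0.000162). The stretch between the 2 starts is among the sequences printed here.

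GATA4 and GATA6 rose by similar ratios, with overlapping intervals. GATA4 was at 0.270, 0.362 and 0.414 FPKM in OE-NC and at 1.22, 1.05 and 1.00 in OE-SOX3, from 91 and 277 reads in all. The groups did not overlap, and reads per unit depth differed 3.13-fold (95% interval 2.47 to 4.02). On the log2(FPKM + 1) scale GATA4 rose by 0.63 (SE 0.07, limma adjusted p = 0.000134), a value that the pseudocount of 1 holds down. On recovered reads, limma-voom gave a log2 fold change of 1.65. GATA6 was lower in abundance, at 0.174, 0.149 and 0.176 FPKM in OE-NC and at 0.556, 0.620 and 0.489 in OE-SOX3. Every OE-SOX3 library was above every OE-NC library. Its reads summed to 35 and 114, which is 3.35 times as many per unit depth in OE-SOX3 (95% interval 2.28 to 5.05), and it rose in the fit without a filter (limma adjusted p = 0.000136, range over its alternatives 0.000113 to 0.00205). Of its exon bases, 14.2% lie in exons of antisense genes, and whether reads were counted by strand is not given. ZFPM2, which encodes a cofactor that binds GATA4 directly, went from 0.160 to 0.339 FPKM and rose without a filter (limma adjusted p = 0.00154).

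WT1 had the largest increase of any member. It had 1, 3 and 0 reads in OE-NC, equal to 0.0147, 0.0413 and 0 FPKM. OE-SOX3 libraries held 44, 53 and 39 reads, equal to 0.637, 0.775 and 0.606 FPKM. The transcript was thus near 0 in the control and low but present in every OE-SOX3 library. Reads per unit depth differed 35.02-fold, with a 95% interval from 13.4 to 130 on a control sum of 4 reads. It rose in the fit without a filter (limma adjusted p = 3.82e-05, range over its alternatives 6.35e-06 to 0.000988). The gene lies on the minus strand of chromosome 11 (32387775 to 32435539, GRCh38), where 2.75% of its exon bases lie in exons of WT1-AS, a divergent noncoding RNA gene.

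The NR5A receptors did not pass the threshold. NR5A1 was at 17.3, 14.7 and 15.2 FPKM in OE-NC and at 16.4, 14.99 and 14.7 in OE-SOX3, so the groups overlapped over nearly their whole range. With 2809 and 2671 reads it was also the best measured member. Its log2 fold change was -0.03 with a 95% interval of -0.22 to 0.17 (limma adjusted p = 0.762), and the sign changed with the scaling, to 0.11 with the same sum per library. NR5A2 was at 0.348, 0.572 and 0.546 FPKM in OE-NC and at 0.544, 0.640 and 0.611 in OE-SOX3. The low value was OE-NC replicate 1, the library that stood apart, and the other OE-NC libraries lay within the OE-SOX3 range. Reads differed 1.22-fold per unit depth (95% interval 1.02 to 1.46, counting error only). NR5A2 did not pass without a filter (log2 fold change 0.11, 95% interval -0.05 to 0.26, limma adjusted p = 0.211), and without OE-NC replicate 1 the log2 fold change was 0.036. NR0B1, which encodes the repressor DAX1 that binds NR5A1, held 1 read in OE-NC and 9 in OE-SOX3, a ratio of 9.27 (95% interval 1.28 to 406). On these few reads NR0B1 rose in the fit without a filter (limma adjusted p = 0.00767).

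**Figure D2:**
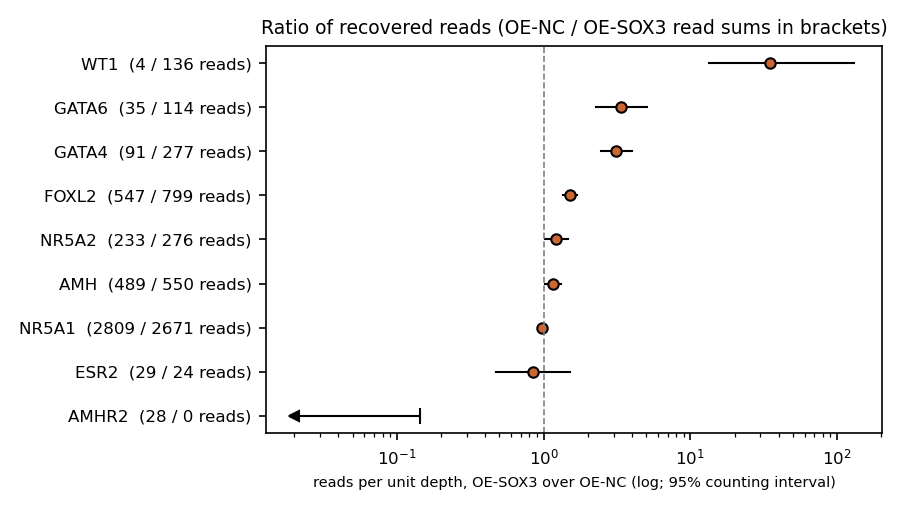
Ratio of recovered reads per unit depth, OE-SOX3 over OE-NC, for 9 members on a log axis; points are ratios of the group sums, lines are 95% exact binomial intervals for counting error only, and the arrow for AMHR2, with 0 reads in OE-SOX3, starts at the upper bound of 0.145. WT1 lies farthest above 1 at 35.02, GATA4 and GATA6 lie at 3.13 and 3.35, and the interval of NR5A1 is the narrowest.

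Among the hormone genes and receptors, AMH was expressed in both groups. It was at 3.86, 4.54 and 5.54 FPKM in OE-NC and at 5.71, 5.08 and 5.33 in OE-SOX3. OE-NC replicate 3 lay inside the OE-SOX3 range, so the groups overlapped. AMH did not pass (log2 fold change 0.18, SE 0.11, 95% interval -0.08 to 0.45, limma adjusted p = 0.178). Without OE-NC replicate 3 it passed (log2 fold change 0.30, limma adjusted p = 0.0277, range over its alternatives 0.0277 to 0.373), and without OE-NC replicate 1 the log2 fold change was 0.082. Of the exon bases of AMH, 3.09% lie in the microRNA gene MIR4321.

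AMHR2, the receptor gene for that hormone, was detected in OE-NC alone. OE-NC libraries held 6, 14 and 8 reads, equal to 0.162, 0.355 and 0.218 FPKM, and OE-SOX3 libraries held 0 in each. It was thus low in the control and at 0 in every OE-SOX3 library. The exact 95% interval, which takes in the counting error of both groups, put it at least 6.90-fold lower in OE-SOX3. A floor of 3 reads over the OE-SOX3 group, set against the 28 control reads without their error, corresponds to 9.06-fold. It fell in the fit without a filter (limma adjusted p = 0.003, range over its alternatives 1.39e-05 to 0.0159). The 0 in OE-SOX3 means not detected at this depth. ESR2 was near 0 throughout, with 10, 10 and 9 reads in OE-NC and 10, 7 and 7 in OE-SOX3 over a gene length of 9873 bases. That equals 0.0505 ± 0.00252 and 0.0429 ± 0.00825 FPKM (SD, n = 3 per group). The ratio of reads was 0.852 (95% interval 0.475 to 1.52), so a change of less than that size was not detectable at this depth. Of the exon bases of ESR2, 5.60% lie in exons of AL161756.1, another gene on the minus strand.

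The start regions of 4 members are printed because they show what lies next to genes that rose (FOXL2, WT1) and to the 2 best expressed genes that did not pass (NR5A1, AMH). They come from RefSeq (GRCh38.p14), 5′ to 3′ on the gene's own strand. WT1, NR5A1 and AMH are shown over the 250 bases before the outermost annotated start, and FOXL2 over the 79 bases that separate it from FOXL2NB. WT1 has 4 annotated start windows, and the others were not read. Capitals mark matches on either strand to 3 searched motif sets. The SOX set was ACAAAG or ACAATG or TCAAAG or TCAATG, the GATA set AGATAA or AGATAG or TGATAA or TGATAG, and the NR5A set AAGGTCA or AAGGCCA. The FOXL2 stretch is chr3:138947138-138947216, the WT1 window chr11:32435540-32435789, the NR5A1 window chr9:124507400-124507649 (these 3 on the minus strand), and the AMH window chr19:2249073-2249322 (plus strand).
FOXL2: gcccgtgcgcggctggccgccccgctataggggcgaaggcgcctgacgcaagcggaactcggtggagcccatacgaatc
WT1: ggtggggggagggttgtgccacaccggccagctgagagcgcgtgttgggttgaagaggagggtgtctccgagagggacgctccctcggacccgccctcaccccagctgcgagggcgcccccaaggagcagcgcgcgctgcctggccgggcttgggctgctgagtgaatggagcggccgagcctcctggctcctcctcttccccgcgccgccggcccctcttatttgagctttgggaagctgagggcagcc
NR5A1: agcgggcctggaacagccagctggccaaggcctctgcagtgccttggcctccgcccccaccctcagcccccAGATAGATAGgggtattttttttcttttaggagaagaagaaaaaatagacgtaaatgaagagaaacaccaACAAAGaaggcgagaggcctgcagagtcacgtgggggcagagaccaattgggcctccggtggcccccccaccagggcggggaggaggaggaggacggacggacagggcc
AMH: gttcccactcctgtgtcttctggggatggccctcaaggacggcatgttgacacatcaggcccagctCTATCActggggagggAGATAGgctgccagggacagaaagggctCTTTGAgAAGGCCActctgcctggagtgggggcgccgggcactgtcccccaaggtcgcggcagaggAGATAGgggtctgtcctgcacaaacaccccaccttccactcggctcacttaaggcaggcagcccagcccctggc
The FOXL2 and WT1 windows of 250 bases held none of the searched letters and were rich in G and C (68.4% and 70.4%). The NR5A1 window held 1 SOX match and 2 overlapping GATA matches, and the AMH window held 1 SOX match, 3 GATA matches and 1 NR5A match. A window, the outermost where several were annotated, was read for 8 of the 9 measured members. Of these, 3 held a SOX match (33.3% of 35116 windows of the same length), 3 a GATA match (22.3%) and 1 an NR5A match (7.62%). The GATA6, ESR2 and AMHR2 windows held none of the searched letters, while GATA6 rose, ESR2 did not pass and AMHR2 fell. The NR5A2 window held 1 SOX match and 4 GATA matches, and NR5A2 did not pass. A match in letters is a description and not a binding site.

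Genes that act around these factors were read from 7 lists chosen with earlier results of these data known. Their counts stand beside the 32.9% higher and 36.1% lower over all tested genes and the overall median log2 fold change of -0.03. Among 20 gonadal regulators and cofactors, 15 could be tested: 9 rose, 1 fell and 5 did not pass (median 0.34). SIX4, a homeobox gene that acts upstream of NR5A1 in the mouse gonad, went from 1.10 to 6.51 FPKM, and LHX9, a homeobox gene needed to form the mouse gonad, from 0.335 to 1.04 FPKM. CTNNB1, which encodes beta-catenin, rose from 108 to 165 FPKM and SMAD3, a TGF-beta effector that cooperates with FOXL2, from 24.7 to 41.5 FPKM. The number lower was 2 without OE-NC replicate 1. LHX9 entered the test only through OE-SOX3, and CBX2, the gene that fell (1.53 to 0.971 FPKM), only through OE-NC, so the filter decided both.

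Relatives of the members moved in both directions. Of 12 GATA, FOX and estrogen receptor genes, 8 could be tested: 4 rose, 2 fell and 2 did not pass (median 0.17). FOXO1, a factor of granulosa cells in growing follicles, rose from 1.85 to 5.90 FPKM and FOXO3 from 6.83 to 10.5 FPKM. FOXC1 rose from 2.90 to 3.70 FPKM, and GATA2 from 0.562 to 1.12 FPKM, testable only through OE-SOX3 and not past the threshold with quantile normalization. The number lower was not stable: it was 1 without OE-NC replicate 2, OE-NC replicate 3, OE-SOX3 replicate 1 or OE-SOX3 replicate 3, and 0 without OE-SOX3 replicate 2 or with the same sum per library.

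Steroidogenic and granulosa target genes were split. Of 20, 13 could be tested: 4 rose, 4 fell and 5 did not pass (median 0.12). Of the 4 that rose, 3 (INHA, INHBA and FST) were tested only through OE-SOX3, and 7 rose with the same sum per library. STAR, whose product carries cholesterol into mitochondria, was at 33.6, 33.7 and 33.3 FPKM in OE-NC and at 116, 116 and 122 in OE-SOX3, without overlap (log2 fold change 1.78, SE 0.06, limma adjusted p = 1.42e-06). CYP11A1, the enzyme that starts steroid synthesis, did not pass, at 2.15 ± 0.321 and 2.25 ± 0.334 FPKM (SD, n = 3 per group), and its groups overlapped. CYP19A1, the aromatase gene that makes estrogen, was at 0.336, 0.210 and 0.273 FPKM in OE-NC and at 0.926, 0.816 and 1.03 in OE-SOX3. It was under the filter and rose without it (limma adjusted p = 0.000215), with a ratio of reads of 3.402 (95% interval 2.68 to 4.36).

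Of the inhibin and activin subunit genes, INHA and INHBA rose, and INHBB, the beta B subunit, held 18 reads in OE-NC and 13 in OE-SOX3 with overlapping groups. INHA, the inhibin alpha subunit, was at 0.194, 0.255 and 0.196 FPKM in OE-NC and at 1.57, 0.812 and 1.76 in OE-SOX3, where replicate 2 was the lowest. Its reads summed to 17 and 105, and it rose (log2 fold change 0.95, SE 0.15, limma adjusted p = 0.00104). INHBA, the beta A subunit, rose from 0.488 to 6.00 FPKM, and FST, which encodes the activin-binding protein follistatin, from 0.356 to 1.19 FPKM. INHA, INHBA and FST passed the filter only through OE-SOX3, the group in which they were high, so the filter decided that they were tested. SERPINE2, a secreted protease inhibitor of granulosa cells, fell from 515 to 312 FPKM. LHCGR, the luteinizing hormone receptor, was near 0, with 3 reads in OE-NC and 23 in OE-SOX3 (ratio 7.90, 95% interval 2.39 to 41.1), and rose without a filter (limma adjusted p = 0.0149).

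**Figure D3:**
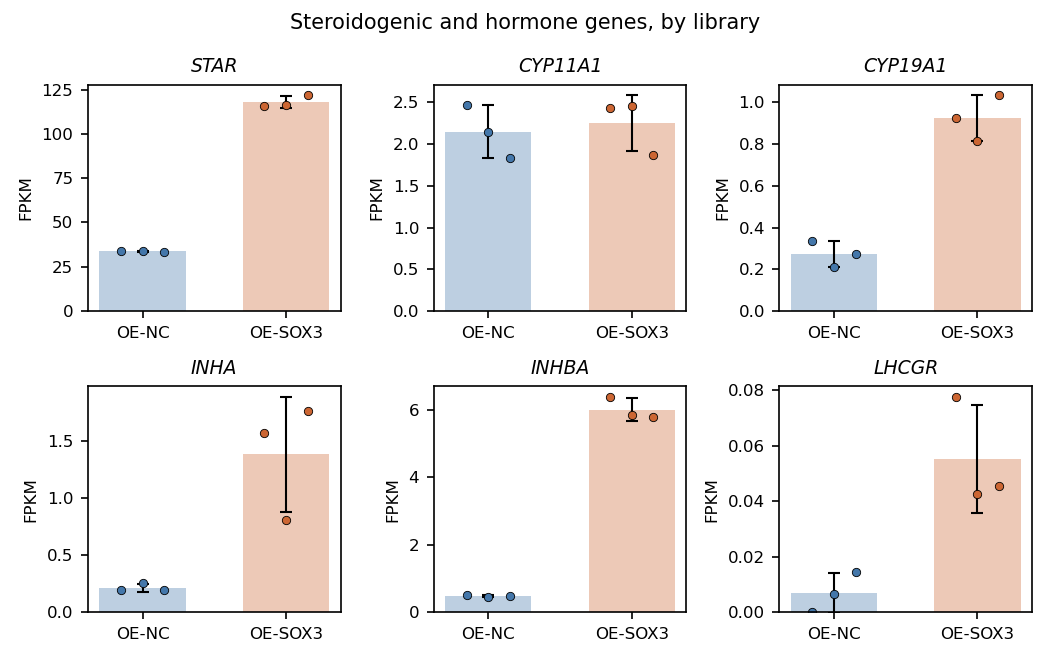
FPKM of 6 steroidogenic and hormone genes (vertical axes, each with its own scale) in the 3 OE-NC and 3 OE-SOX3 libraries; points are libraries 1 to 3 from left to right, bars are means and error bars are SDs. The groups of CYP11A1 overlapped, and the other 5 genes were higher in every OE-SOX3 library than in any OE-NC library.

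Genes listed around the anti-Müllerian hormone signal below AMHR2 were mostly higher. The list holds receptors and SMAD effectors, but also the inhibitory SMAD6 and SMAD7, which rose, and the ID target genes. Its counts thus give no direction of the signal. Of its 14 genes, 13 could be tested: 10 rose, none fell and 3 did not pass (median 0.35). Of the 10, SMAD9 (0.577 and 1.07 FPKM) was tested only through OE-SOX3. Without each library in turn, the number higher ranged from 7 to 10. With quantile normalization 7 genes of the list rose and 1 fell. The 3 type I receptors for the hormone differed: BMPR1B rose from 1.06 to 1.39 FPKM (limma adjusted p = 0.0278), BMPR1A stood at 5.09 and 4.50 FPKM and ACVR1 at 12.3 and 13.4 FPKM without passing. The call of BMPR1B was lost without any of OE-NC replicate 2, OE-NC replicate 3, OE-SOX3 replicate 1 and OE-SOX3 replicate 2 (log2 fold change 0.19, 0.18, 0.17 and 0.22), and BMPR1A fell without OE-NC replicate 1 (log2 fold change -0.20), where 1 gene of the list was lower. BMPR2, a type II receptor gene for bone morphogenetic proteins, rose from 6.27 to 10.9 FPKM and the effector SMAD5 from 7.46 to 13.2 FPKM. ID2 and ID3, inhibitors of helix-loop-helix factors and targets of these SMAD proteins, rose from 1.24 to 2.59 and from 15.7 to 79.9 FPKM.

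Other hormone receptors and genes around the signal of follicle-stimulating hormone were read in place of FSHR. Of 16 receptor genes, 9 could be tested: 6 rose, none fell and 3 did not pass (median 0.34). The number higher ranged from 4 to 6 without each library in turn. Without a filter 1 fell, the prolactin receptor PRLR, with 396 reads in OE-NC and 97 in OE-SOX3 (limma adjusted p = 0.00512). The insulin-like growth factor receptor IGF1R rose from 3.92 to 9.55 FPKM, the insulin receptor INSR from 2.02 to 2.82 FPKM and the thyroid hormone receptor THRA from 10.03 to 16.8 FPKM. Of 18 genes listed around the follicle-stimulating hormone signal through cyclic AMP, all 18 could be tested: 5 rose, 7 fell and 6 did not pass (median 0.060, and -0.050 without OE-NC replicate 1). The list also holds genes that damp the signal. Of these, ARRB1, ARRB2 and GRK6 fell, the phosphodiesterase gene PDE8A rose and PDE4D did not pass. The counts thus give no direction of the signal. The catalytic kinase subunit PRKACA fell from 50.8 to 34.2 FPKM and the regulatory subunit PRKAR2A from 15.4 to 7.33 FPKM, whereas the regulatory subunit PRKAR2B rose from 3.69 to 5.83 FPKM. GRK6, a kinase that desensitizes receptors, fell from 8.03 to 5.41 FPKM. Of 14 genes of female sex determination, 9 could be tested: 4 rose, none fell and 5 did not pass (median 0.18). Of the 4, FST was tested only through OE-SOX3. They included the Notch ligand gene JAG1 (5.87 to 28.3 FPKM), RUNX1 (8.03 to 12.7 FPKM) and KITLG, the ligand of the oocyte receptor KIT (11.9 to 16.8 FPKM), and 1 of the list was lower when OE-NC replicate 1 or OE-NC replicate 2 was left out, with quantile normalization and with the replicate number as a block.

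**Figure D4:**
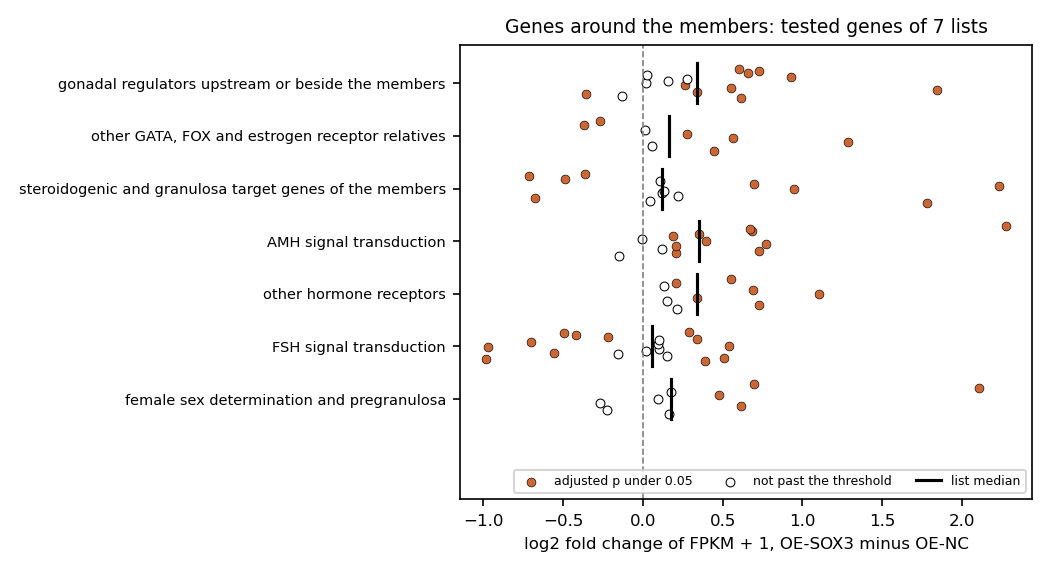
Log2 fold change of FPKM + 1, OE-SOX3 minus OE-NC (horizontal axis), for the tested genes of 7 lists (rows); filled points passed an adjusted p of 0.05 in limma, open points did not, and vertical bars are list medians. The medians run from 0.06 for the follicle-stimulating hormone signal list to 0.35 for the anti-Müllerian hormone signal list.

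By the shape of their values over the 6 libraries, the genes closest to FOXL2 among 11131 tested were PNKD, ZDHHC24 and NUDT11, with root mean square differences of 0.037 to 0.040 in log2 units after centring. ZNF587, WDTC1 and LRRC37B were closest to GATA4 (0.018 to 0.026), and ILVBL, MTA3 and RNF14 to NR5A1 (0.016 to 0.023). CCDC57, SACM1L and FLVCR1 were closest to AMH (0.041 to 0.049). These profiles share the libraries and their depth, and the likeness is a description.

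The label of granulosa cells was set beside defining markers. The granulosa list repeats the members FOXL2, AMH, AMHR2, FSHR, NR5A2, GATA4 and WT1, and INHA and CYP19A1 from above. It is thus not an independent check. Of 10 granulosa markers, 9 had a row, 2 (FOXL2 and AMH) reached a mean of 1 FPKM in OE-NC and 4 (also GATA4 and INHA) in OE-SOX3, so several defining markers were low or near 0 in this line. Their summed level was 9.49 to 10.2 FPKM in OE-NC and 14.5 to 15.8 in OE-SOX3. Markers of theca and stroma were abundant and higher beside the members: 6 of 7 tested rose, and the sum went from 448 to 454 FPKM in OE-NC to 2083 to 2226 in OE-SOX3, mostly COL1A1. Of the theca-defining genes, CYP17A1 held 6 reads in OE-NC and 0 in OE-SOX3. Of 8 Sertoli and testis genes, 5 had a row and 1 was tested, CLDN11 (2.11 and 0.516 FPKM), which fell but passed the filter only through OE-NC, and SOX9 stood at 0.642 and 0.588 FPKM. Luteal markers summed to 36.8 to 37.4 and 120 to 125 FPKM, mostly STAR. Oocyte markers summed to under 1 FPKM in every library. Immune markers summed to 76.0 to 80.0 and 55.6 to 57.6 FPKM, mostly CD68, while PTPRC held 27 and 20 reads. Of 5 endothelial markers, 3 reached 1 FPKM in both groups: PECAM1 fell from 3.54 to 2.48 FPKM, TEK rose from 1.66 to 2.27 FPKM and KDR stood at 1.89 and 2.41 FPKM without passing. CDH5 held 2 and 2 reads, and the endothelial sums were 6.67 to 7.90 and 7.07 to 7.54 FPKM. The surface epithelium sums, mostly KRT7, were 107 to 141 and 40.4 to 46.1 FPKM, and EPCAM held 8 and 6 reads. In the same list MSLN went from 13 to 57 reads and MUC16 from 5 to 64 reads, and limma-voom called 2 genes higher and 1 lower. The part of these differences in the members' values was not tested.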

How the data were processed

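Per the labels' protocols, RNA of 6 KGN libraries was sequenced with Illumina chemistry. The authors deposited 1 value per gene and library, taken here as FPKM because the header names no unit and the values are whole multiples of a step set by gene length. HISAT2, HTSeq, RSEM and hg38 are named without roles or versions, per the submitters' processing notes, and neither annotation nor strand setting is stated there. A change in transcript length enters FPKM as a change in expression.

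Whole reads and a whole gene length fitted 16277 of 16278 genes above 0 (within 0.001 reads, widened in proportion for genes with many reads). The fewest reads that fit were taken. Recovered reads gave depth, 95% exact binomial intervals (counting error only) and limma-voom as an alternative. The main test was limma-trend on log2(FPKM + 1), which understates changes of low genes, kept where a group averaged 1 FPKM or more (R 4.3.3 and limma 3.58.1). P-values were adjusted by Benjamini-Hochberg over all tested genes. Read recovery and the fit were tested on simulated data. Low members were read from the same fit without a filter. Python 3.11.15 with NumPy 2.4.6 and pandas 2.3.3 was used.

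Deviations of same-numbered libraries from their group means correlated at 0.486, 0.243 and 0.250, all over 0.1. This hint of pairing comes from the data and not from the labels. The 3 values are not separate checks, since the deviations within a group are tied by their shared mean. The main fit and the p-values printed from it have no block for the replicate number, and the blocked fit is an alternative. Within groups, chi-square per degree of freedom was 1.71 for OE-NC 2 and 3 and 1.97 for OE-SOX3 2 and 3, where counting error gives about 1, and 4.20 to 55.1 for the other pairs. The members and lists were chosen with earlier results of these data known. Named genes were the members, the best-ranked called genes per list (up to 4, by adjusted p), direct partners of the members, 5 steroidogenic or hormone genes and the nearest profiles. A gene that this rule names is not reported here. FOXL2NB, marker genes and some list genes, such as CBX2, SMAD9, PRLR and PDE8A, are outside that rule and were named after their values were seen. The limma-voom fit on genes with at least 10 reads in all was also chosen after seeing the data.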

Additional observations from a re-analysis of the deposited data

How the results depend on the processing

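FOXL2 and GATA4 kept their direction and their call in all 13 alternatives in which they were tested, with log2 fold changes of 0.41 to 0.60 and 0.34 to 1.65. GATA6, WT1 and AMHR2, first tested without a filter, kept theirs in all 17. These include limma-voom fits that WT1 and AMHR2 entered only through the group in which they were high. GATA4 likewise entered every fit with the filter of 1 FPKM only through OE-SOX3. Those alternatives are thus no separate check of its rise. Of 659 recomputed single-gene values for 46 genes, 640 kept direction and side of the threshold. The members called numbered 2, both higher. They numbered 5 with no filter and 5 in limma-voom on genes with at least 10 reads (4 higher and 1 lower in each), and 0 (0 higher) with a filter of 5 FPKM, which leaves out FOXL2 and GATA4. That filter also lowered the genes called higher from 3665 to 2312, since fewer genes were tested. Without each library in turn, the members called ranged from 2 to 3 (2 to 3 higher, 0 lower) and the genes called from 6557 to 9076 (3154 to 4274 higher, 3403 to 4802 lower).

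Signs reversed only among values that did not pass: NR5A1 (0.11 with the same sum per library, 0.10 with quantile normalization, -0.076 to 0.038 without each library in turn, including 0.00038 without OE-SOX3 replicate 3), NR5A2 (-0.053 with quantile normalization), ACVR1 (-0.017 to 0.20 without each library in turn) and CYP11A1 (-0.089 with quantile normalization, -0.028 to 0.13 without each library in turn). Under quantile normalization ESR2 passed (adjusted p = 0.0276 in limma, range over its alternatives 0.0276 to 0.808) and BMPR1B did not (log2 fold change 0.035). The cause was not tested. With the replicate number as a block, the genes called numbered 8031 and the members called 2, and it changed no member's call. It moved the number lower in female sex determination from 0 to 1, the gonadal regulators higher from 9 to 10 and the genes of the AMH signal list higher from 10 to 9. For ESR2, AMHR2 and WT1, depth limits precision, with fewer than 30 reads over a group in at least 1 group.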
